A study of Homo sapiens with 12 samples.

Results

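Long intergenic noncoding RNAs (lincRNAs) are transcripts that lie between protein-coding genes and are not known to be translated. Of the 57820 gene rows in the deposited table, 7114 carry the lincRNA type, and 106 of these had a mean of at least 100 normalized reads over the 12 libraries once GAS5 and genes named SNHG, the hosts of small nucleolar RNAs, were set aside by name (SNHG15 and SNHG8 would otherwise have passed). The study used HL60, a line of human promyelocytic leukaemia cells, transduced with a puromycin-selectable lentiviral vector that was either empty (EV) or drove TFEB S211A under the control of doxycycline. TFEB is the transcription factor of lysosomal and autophagy genes, and the S211A form lacks the serine through which mTORC1 signalling retains it in the cytoplasm. Each line was taken with vehicle and with doxycycline (1 µg/ml for 48 hours), which made the groups EV-Veh, EV-Dox, TFEB-Veh and TFEB-Dox, with 3 biologically independent libraries each. The protocol text gives that dose and time for all 12 samples, the vehicle ones included, so vehicle and drug were told apart by the titles and treatment labels. The cells of all 4 groups had been transduced and carry the vector backbone, the 2 doxycycline groups share the drug, and the clonality of each line was not given in the sources used here.

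The members were chosen by their mean over all 12 libraries, so a lincRNA that is low in 3 groups could enter through the fourth. For 36 of the 106 the mean outside TFEB-Dox was under 100, so these had to be higher in TFEB-Dox to be members at all. Another 9 averaged under 100 outside EV-Veh, 3 outside TFEB-Veh and 1 outside EV-Dox. The members just inside the limit were RP5-1043L13.1 with a mean of 101.8, LINC00683 with 100.7 and CTC-459F4.3 with 100.7, and the lincRNA rows just outside had 99.98, 98.1 (CTD-2538C1.2) and 97.0 (PAXIP1-AS1). All 106 also passed the lower limit for testing, a mean of 10, together with 1890 other lincRNA rows. The type label is an older one: 65 members have clone-style names, and of the 87 whose Ensembl identifier is found in GENCODE release 29, 74 are still lincRNAs, 5 are pseudogenes, 3 are protein coding (LINC00493, now SMIM26, NCBP2-AS2 and AC093323.3) and 5 have another type. The row named SNORA76 is SNHG25 in current naming and stayed in by the rule, and the row named MIR29B1 has the identifier of LINC-PINT in GENCODE.

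LincRNAs act in several ways. Some scaffold nuclear bodies, such as NEAT1 in paraspeckles, some are the RNA parts of enzymes, such as RMRP in RNase MRP and TERC in telomerase, and some, such as NORAD, bind proteins in the cytoplasm. Many are made in a few cell types only, and in blood cells their set changes as progenitors mature.

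TFEB itself separated the TFEB-Dox libraries from the rest, with 79.8 to 196 normalized reads in the 9 control libraries and 14470 to 22629 in the 3 induced ones. Recovered read totals lay between 4474007 in EV-Dox replicate 3 and 22488047 in EV-Veh replicate 2, and 36898 to 273172 of these reads fell on the 106 members. Promyelocyte markers were present in every library, and they moved with the groups. The sum of 7 such markers was 68617 to 222154 in EV-Veh, 5084 to 30126 in EV-Dox, 50416 to 98069 in TFEB-Veh and 8021 to 11242 in TFEB-Dox. MPO, with a mean of 48304, weighs most in that sum. MPO (-3.46), PRTN3 (-3.75), AZU1 (-2.44) and MYB (-2.79) were lower in TFEB-Dox against TFEB-Veh under each scaling. ELANE (-0.00021), CTSG (-0.85) and CD33 (-0.53) were not called in that comparison on the deposited scale. When libraries were scaled to expressed nuclear genes, limma called CTSG (-1.60, adjusted p = 5.14e-08) and CD33 (-1.28, adjusted p = 1.75e-07) lower. ELANE (-0.75, adjusted p = 0.0755) stayed uncalled there. In EV-Dox against EV-Veh the first 4, ELANE and CTSG were lower under each scaling. The part of these markers in the lincRNA results was not tested. The means of 5 lymphoid, 5 erythroid or platelet and 5 epithelial or stromal markers measured did not exceed 88.8. Total normalized reads differed between groups, with the lowest mean in EV-Dox and the highest in TFEB-Dox. Other scalings moved the median of all tested genes by -0.24 to -0.82 (log2) in TFEB-Dox against TFEB-Veh and by 0.58 to 1.24 in EV-Dox against EV-Veh. A member is therefore said below to have risen or fallen under each scaling where the limma test gave an adjusted p under 0.05 in that direction both as deposited and after 4 other scalings. A log2 change is that of normalized reads plus 1, which understates the change of rows near 0. In bulk RNA, fewer cells of a type and less RNA per cell cannot be told apart.

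In TFEB-Dox against TFEB-Veh, 46 of the 106 members were higher and 8 were lower on the deposited scale, and 42 and 8 held under each scaling. Among all 23128 tested genes 17.4% were higher and 4.66% lower, and among the 9491 tested genes averaging at least 100 these shares were 30.4% and 4.18%. Under each scaling the shares were 12.6% and 4.42% of all tested genes and 26% and 4.18% of those with a mean of at least 100. Of the 36 members that entered through TFEB-Dox 34 were higher under each scaling, as the rule all but required, so that for these 36 every level and change is a description and no p is given. Of the other 70, 8 were higher (NEAT1, LINC00657, RP11-427H3.3, RP11-522D2.1, CTC-546K23.1, RP11-611L7.1, TERC and MIR4435-1HG) and 8 were lower. The median log2 change of those 70 was 0.23 as deposited and -0.52 when libraries were scaled to expressed nuclear genes, so its sign depends on the scaling. Against each of the 3 control groups at once, 40 members had higher and 3 had lower values, of which 38 and 3 held under each scaling, beside 10.7% and 1.35% of all tested genes (7.45% and 1.05% under each scaling). Of the tested genes with a mean of at least 100 these were 17.2% and 0.906% (15.2% and 0.896% under each scaling). Of the 38, 33 had entered through TFEB-Dox. The 38 remained higher in TFEB-Dox against TFEB-Veh without any 1 of the 12 libraries. For those 33 this is a description only, since membership stayed as set by all 12 libraries.

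**Figure D1:**
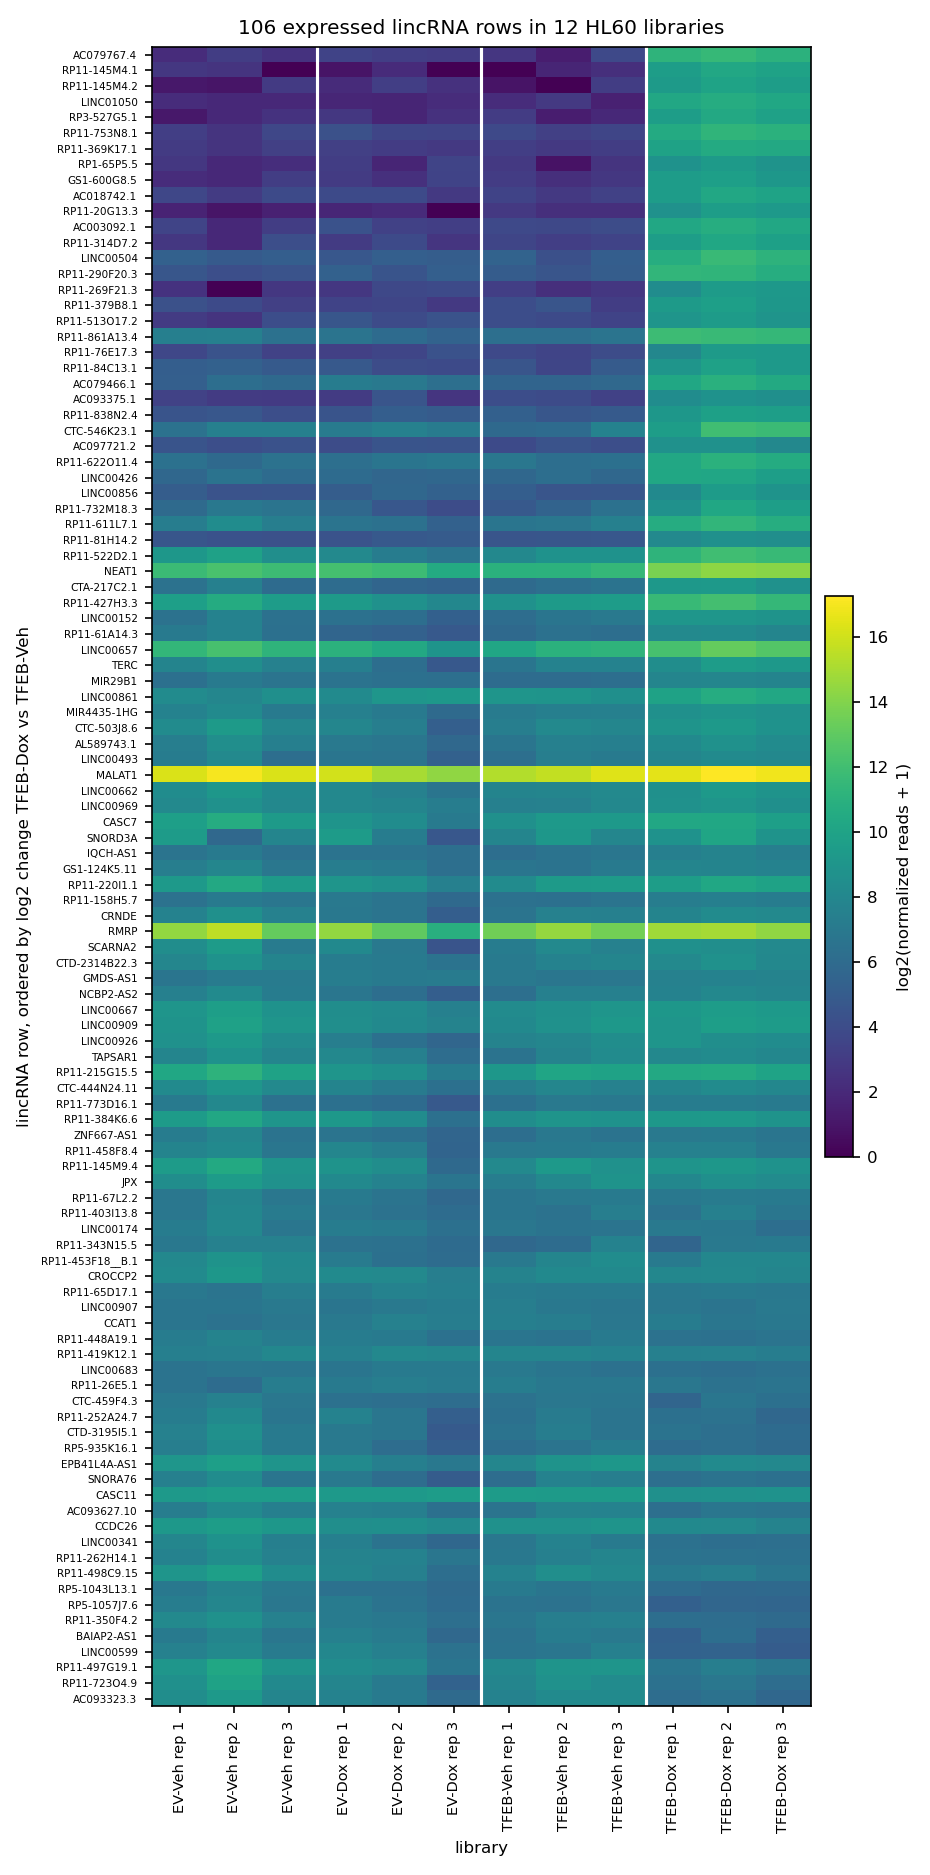
Normalized reads of the 106 lincRNA rows (vertical, ordered by log2 change in TFEB-Dox against TFEB-Veh) in the 12 libraries (horizontal), coloured by log2(normalized reads + 1). The upper rows are dark in the 9 control libraries and bright in the 3 TFEB-Dox libraries, MALAT1 and RMRP are high in all 12, and the rows at the foot are darker in TFEB-Dox.

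NEAT1 (ENSG00000245532.4), the scaffold of paraspeckles, measured 3499, 5091 and 3626 in EV-Veh, 4467, 3648 and 1462 in EV-Dox, 2066, 2185 and 2829 in TFEB-Veh and 13934, 20349 and 18440.5 in TFEB-Dox. All 3 induced libraries lay above all 9 controls, by 2.89 in log2 terms (limma, SE 0.56, adjusted p = 9.53e-05) against TFEB-Veh and 2.59 (adjusted p = 0.000318) against EV-Dox, and both held under each scaling. MALAT1 (ENSG00000251562.3), which resides in nuclear speckles and is encoded next to NEAT1, measured 76496, 128566 and 76744 in EV-Veh, 66849, 32414 and 21066 in EV-Dox, 39562, 52188 and 85769 in TFEB-Veh and 95348, 154028 and 120900.0 in TFEB-Dox. Its groups overlapped, and the log2 change of 1.11 (SE 0.55) against TFEB-Veh did not pass limma's test (adjusted p = 0.154). As a share of library reads MALAT1 was 0.575 ± 0.118% in TFEB-Veh and 0.674 ± 0.058% in TFEB-Dox (SD, exact permutation p = 0.2).

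A ratio within a library needs no scaling. NEAT1 read values were 4.42 ± 0.41% of those of MALAT1 in EV-Veh, 8.29 ± 2.57% in EV-Dox, 4.24 ± 0.96% in TFEB-Veh and 14.4 ± 1.04% in TFEB-Dox (SD, n = 3 each, not per length). The TFEB-Dox ratios, 13.2% to 15.3%, lay above the highest control ratio of 11.3%, found in EV-Dox, and an exact two-sided permutation test against TFEB-Veh alone gave p = 0.1, the smallest that 3 against 3 libraries allow. In EV-Dox the ratios also lay above those of EV-Veh (6.68% to 11.3% against 3.96% to 4.73%), again with an exact permutation p of 0.1. Of 13 paraspeckle protein genes, among them NONO and SFPQ, limma called 0 in TFEB-Dox against TFEB-Veh (2 at an unadjusted p under 0.05; median log2 change 0.63), and edgeR and DESeq2 called 2 each.

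The RNAs that work as parts of enzymes gave 1 call. TERC (ENSG00000270141.2), the template RNA of telomerase, measured 217, 369.9 and 187 in EV-Veh, 176, 75.5 and 26.0 in EV-Dox, 102, 194 and 199 in TFEB-Veh and 350.0, 749 and 589.5 in TFEB-Dox. It was higher than in TFEB-Veh by 1.76 (SE 0.47, limma adjusted p = 0.00464), a call lost without TFEB-Veh replicate 1. On the deposited scale its highest EV-Veh library, replicate 2, lay above its lowest TFEB-Dox library, replicate 1. The normalized totals of these libraries were 22302100 and 15700000, so the overlap depends on the scaling. RMRP (ENSG00000269900.2), the RNA of the RNase MRP particle that trims ribosomal RNA precursors, measured 22579, 47295 and 9231 in EV-Veh, 22179.8, 8524 and 1839 in EV-Dox, 11798, 22869.8 and 12297 in TFEB-Veh and 28298, 31234 and 21179 in TFEB-Dox. Its replicates spread widely and its log2 change of 0.83 (SE 0.67) did not pass (adjusted p = 0.419). As a share of library reads RMRP was 0.157 ± 0.053% in TFEB-Veh and 0.149 ± 0.028% in TFEB-Dox (SD, exact permutation p = 0.9). Of 10 RNase P and MRP protein genes POP4 (1.34) and RPP38 (1.38) were higher in TFEB-Dox against TFEB-Veh, POP4 under each scaling.

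Among 7 members of a list of growth, cancer and stress lincRNAs 3 rose under each scaling and none fell, with a median log2 change of 1.00, beside 12.6% of all tested genes higher and 26% of those averaging at least 100. One of the 3, LINC00152, had entered the set through TFEB-Dox. LINC00152 (ENSG00000222041.6), now CYTOR, a cytoplasmic lincRNA often raised in tumours, measured 89.0, 198 and 83.3 in EV-Veh, 84.1, 74.6 and 38.6 in EV-Dox, 69.4, 103 and 122 in TFEB-Veh and 531, 519.7 and 456 in TFEB-Dox. The induced libraries stood apart from all controls, and the log2 change was 2.38, which the rule favoured since its mean outside TFEB-Dox was 95.8. MIR4435-1HG (ENSG00000172965.10), now MIR4435-2HG, a near-identical copy of CYTOR that hosts a microRNA, measured 197, 299.5 and 139 in EV-Veh, 179, 128 and 61.0 in EV-Dox, 146, 175 and 179 in TFEB-Veh and 399, 492 and 412 in TFEB-Dox. Its log2 change was smaller, 1.38 (SE 0.41, adjusted p = 0.0114), and was lost without TFEB-Veh replicate 1 and without TFEB-Dox replicate 2. Reads that fit both copies could be split or dropped by the counting, so the levels of the pair are uncertain. CYTOR took 36.1 ± 4.48%, 35.8 ± 3.50% and 36.6 ± 4.21% of the reads of the pair in EV-Veh, EV-Dox and TFEB-Veh and 53.7 ± 3.02% in TFEB-Dox (SD, n = 3), a description too, as LINC00152 entered through TFEB-Dox.

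LINC00657 (ENSG00000260032.1) is NORAD, which sequesters PUMILIO proteins and guards genome stability, and it measured 2719.6, 4872 and 2414 in EV-Veh, 2183, 1361 and 494 in EV-Dox, 1166, 2061 and 2389 in TFEB-Veh and 4787, 9259 and 6168 in TFEB-Dox. It was higher than in TFEB-Veh by 1.86 (SE 0.58, limma adjusted p = 0.0158) and than in EV-Dox by 2.51 (adjusted p = 0.000663). The first call was lost without TFEB-Veh replicate 1, TFEB-Dox replicate 2 or TFEB-Dox replicate 3. On the deposited scale EV-Veh replicate 2 lay above TFEB-Dox replicate 1. Its normalized total was also larger (22302100 against 15700000), so this overlap too depends on the scaling. The other 4 of the list, CCAT1 (-0.22), CRNDE (0.84), CASC7 (1.00) and EPB41L4A-AS1 (-0.64), were not called against TFEB-Veh on the deposited scale. The MIR29B1 row, LINC-PINT by identifier and a p53-responsive RNA under that name, had a mean of 69.8 ± 4.13 in TFEB-Veh and 225 ± 11.4 in TFEB-Dox (SD, n = 3; log2 change 1.67), and it too entered through TFEB-Dox. JPX, an X inactivation activator RNA, changed by 0.19 (adjusted p = 0.806), and its sign turned under other scalings.

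**Figure D2:**
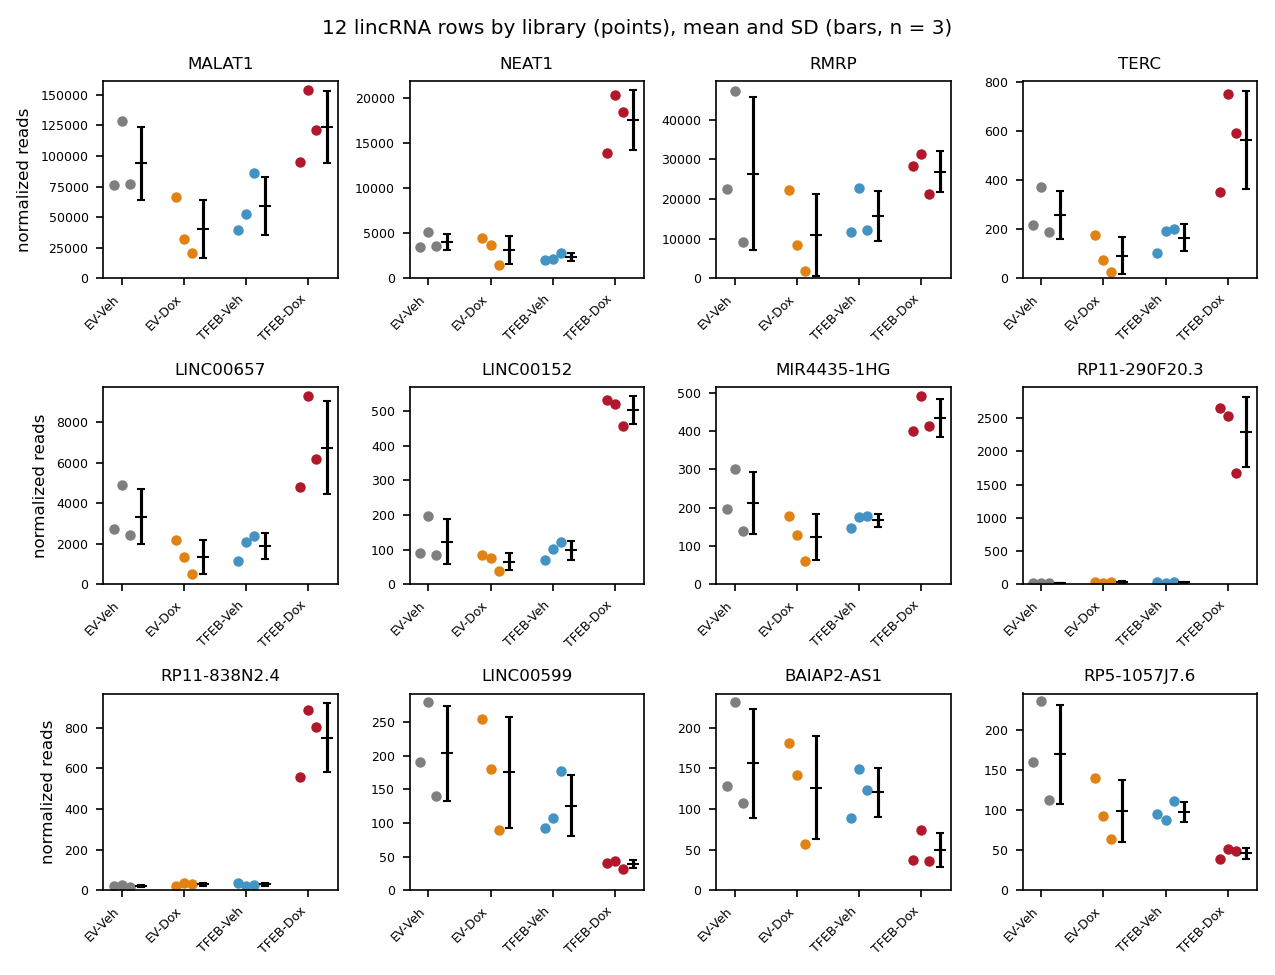
Normalized reads (vertical, linear axes from 0) of 12 lincRNA rows in the 4 groups (horizontal); coloured points are libraries and black bars the mean with SD (n = 3). NEAT1, LINC00152, MIR4435-1HG, RP11-290F20.3 and RP11-838N2.4 have all 3 TFEB-Dox points above all 9 control points, MALAT1 and RMRP overlap between groups, and LINC00599 and RP5-1057J7.6 have all 3 TFEB-Dox points below the control points.

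One group of members was near silent in the controls. Here 24 members stayed under 50 normalized reads in each of the 9 control libraries, and all had at least 250.4 in each TFEB-Dox library. Their summed value was 242 to 331 in a control library and 20985 to 30647 in an induced one. The mean in TFEB-Dox exceeded the mean of the 9 controls 15.0-fold to 427-fold, with a median of 102-fold. All 24 were among the 38 called against each control group under each scaling. Entry of these rows into the set rests on TFEB-Dox, so these calls and the size of the change are a description only.

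AC079767.4 (ENSG00000224137.1), now LINC01857, had the largest change on the log2(normalized reads + 1) scale, with 3.51, 7.93 and 4.84 in EV-Veh, 10.2, 8.39 and 7.18 in EV-Dox, 5.48, 1.61 and 12.9 in TFEB-Veh and 2339, 2946 and 2109 in TFEB-Dox, or 8.63. By the fold of means over the 9 controls RP11-145M4.1 (427-fold) and LINC01050 (418-fold) exceeded it (358-fold). The neighbouring rows RP11-145M4.1 and RP11-145M4.2 rose by 8.60 and 8.30. RP11-145M4.1 held 0.000, 2.41 and 3.97 in TFEB-Veh and 783, 1281 and 982 in TFEB-Dox, and RP11-145M4.2 held 0.913, 0.000 and 7.95 and 660.1, 1029.7 and 780.3. Both were thus at or near 0 in the uninduced line and high in every induced library.

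LINC01050 did not exceed 6.43 in any control library and measured 1304, 1639 and 1250.0 in TFEB-Dox (log2 change 8.21). The next by size were RP3-527G5.1 (7.79), RP11-753N8.1, now LINC02392 (7.39), RP11-369K17.1 (7.21), RP1-65P5.5 (6.93), GS1-600G8.5, now LINC02154 (6.74), AC018742.1, now LINC01822 (6.71), RP11-20G13.3, now LINC02244 (6.68), and AC003092.1 (6.66). None of these 8 exceeded 19.5 in a control library or fell under 411 in TFEB-Dox.

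PELATON and GAPLINC among the near-silent rows are lincRNAs described in myeloid or epithelial cells. RP11-290F20.3 (ENSG00000224397.1) is PELATON, also listed as SMIM25, a nuclear lincRNA known from monocytes and macrophages. It measured 23.4, 16.9 and 20.3 in EV-Veh, 40.8, 21.0 and 36.8 in EV-Dox, 31.0, 22.5 and 32.8 in TFEB-Veh and 2653, 2533 and 1681 in TFEB-Dox, which is 6.25 higher in log2 terms. RP11-838N2.4 (ENSG00000266835.1) is GAPLINC, first described in gastric cancer and also found in macrophages, and it measured 21.1, 24.8 and 16.5 in EV-Veh, 21.2, 34.4 and 30.5 in EV-Dox, 38.4, 23.3 and 27.8 in TFEB-Veh and 559.6, 889.8 and 806 in TFEB-Dox. The induced libraries of both stood far above every control, by 4.61 for GAPLINC. LINC00504 went from 42.9, 17.7 and 33.8 in TFEB-Veh to 1721, 3321 and 2302 in TFEB-Dox (6.27).

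**Figure D3:**
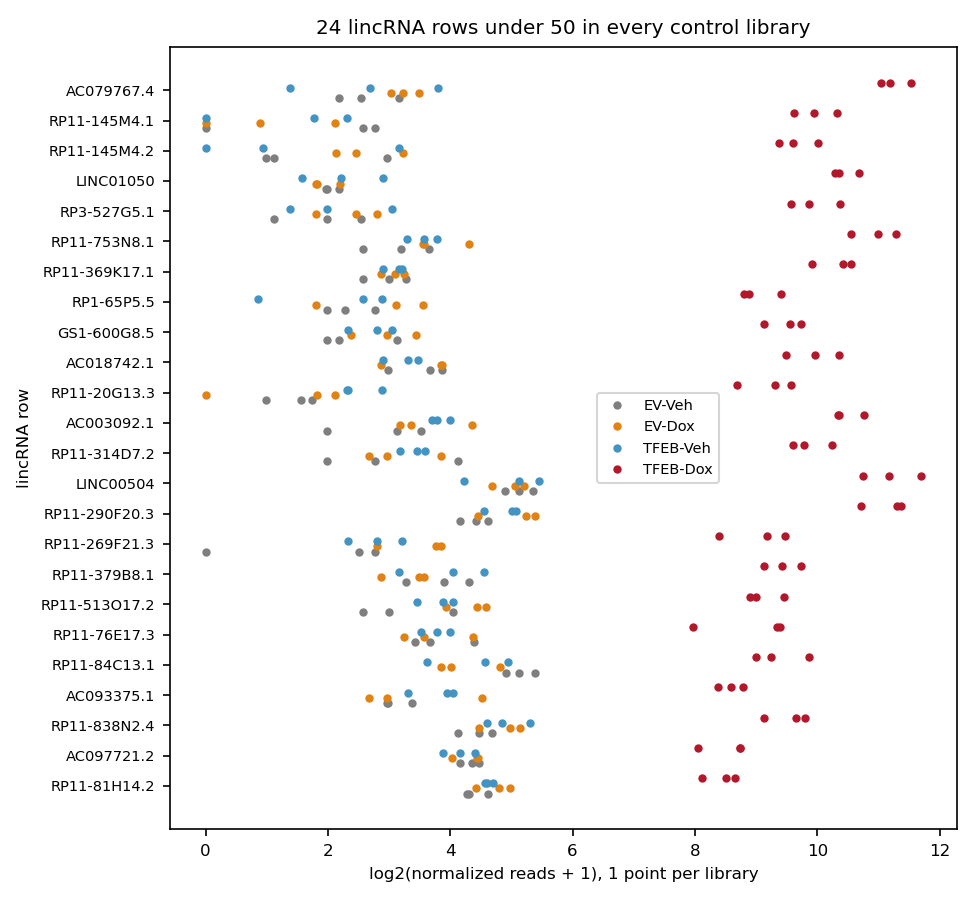
The 24 lincRNA rows under 50 normalized reads in every control library (vertical) against log2(normalized reads + 1) (horizontal), 1 point per library, coloured by group. The 3 TFEB-Dox points of each row lie to the right of the 9 control points with no overlap. The 3 control groups overlap each other in some rows and not in others. For RP11-269F21.3 the highest EV-Veh value was 5.81 and the lowest EV-Dox value 5.94 normalized reads.

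Other rises began from a measurable level. RP11-522D2.1 (ENSG00000236719.2), now OVAAL, a lincRNA known from melanoma and colorectal cancer, measured 557, 929 and 363 in EV-Veh, 271, 148 and 96.9 in EV-Dox, 267, 449 and 437 in TFEB-Veh and 2409, 3874 and 3063 in TFEB-Dox, and its log2 change against TFEB-Veh was 3.03 (SE 0.49, limma adjusted p = 4.78e-06). RP11-861A13.4, now LINC01215, measured 172, 178 and 87.2 in EV-Veh, 95.9, 62.9 and 44.8 in EV-Dox, 75.8, 77.9 and 98.3 in TFEB-Veh and 3628, 3251 and 2849.8 in TFEB-Dox (5.26). Every induced library of both lay above every control library. For RP11-861A13.4 this is a description only, as its mean outside TFEB-Dox was 99.2 and it entered through TFEB-Dox. RP11-427H3.3 rose by 2.52 and RP11-611L7.1 by 3.89, also without overlap. CTC-546K23.1 rose by 4.56, with 770.2, 3967 and 3416 in the 3 TFEB-Dox libraries, so that replicate 1 lay well under the other two. LINC00861 (1.49), AL589743.1 (1.18), LINC00493 (1.11) and IQCH-AS1 (0.96) were called on the deposited scale and not under each scaling. AL589743.1 (DUXAP9) and CTD-2314B22.3 (DUXAP10) are near-identical pseudogenes, so the split of reads between them is uncertain.

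The promoters of rising members are shown for the AP-1 and E-box motifs they hold. RefSeq promoters, from 250 bases before to 50 after the gene's start on GRCh38.p14, were found for 37 members, 14 of which rose, 3 fell and 20 did neither under each scaling. The AP-1 motif TGANTCA, bound by FOS and JUN dimers and searched on both strands, was in 6 of the 14, in 0 of the 3 and in 0 of the 20, beside 7.8% of 27305 promoters. Of the 14 rising members with a promoter 12 had entered through TFEB-Dox, and so had 5 of the 6 with the motif, so a rise and this route of entry cannot be told apart here. CYTOR and MIR4435-2HG are copies, and the match of MIR4435-2HG lies in a stretch that the promoter of CYTOR also holds. Starts of these older gene models may differ from RefSeq's. The 6 promoters follow, 5′ to 3′ on the gene's strand, with AP-1 matches in capitals; the first motif base, counted with the gene's start as 1, is at -224 in LINC01215, -26 in LINC01050, 41 in MIR4435-2HG, -19 and -9 in CYTOR, -166 in LINC02542 (RP11-379B8.1) and -185 and -108 in LINC02384 (RP11-81H14.2). They lie, in this order, at chr3:108125571-108125870 (plus strand), chr13:42812513-42812812 (minus strand), chr2:111495112-111495411 (minus strand), chr2:87455177-87455476 (plus strand), chr6:81938372-81938671 (minus strand) and chr12:68451435-68451734 (minus strand).
LINC01215: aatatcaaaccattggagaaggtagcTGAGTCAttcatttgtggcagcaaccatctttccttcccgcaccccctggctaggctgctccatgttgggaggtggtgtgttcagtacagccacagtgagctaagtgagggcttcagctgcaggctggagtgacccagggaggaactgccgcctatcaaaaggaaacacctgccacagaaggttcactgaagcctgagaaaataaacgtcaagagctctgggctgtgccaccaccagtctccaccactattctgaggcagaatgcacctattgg
LINC01050: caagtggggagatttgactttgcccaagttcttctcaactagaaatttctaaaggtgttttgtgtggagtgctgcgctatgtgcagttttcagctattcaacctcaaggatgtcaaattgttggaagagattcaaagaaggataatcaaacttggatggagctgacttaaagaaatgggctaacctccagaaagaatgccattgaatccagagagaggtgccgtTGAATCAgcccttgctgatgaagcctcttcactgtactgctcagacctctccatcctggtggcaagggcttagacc
MIR4435-2HG: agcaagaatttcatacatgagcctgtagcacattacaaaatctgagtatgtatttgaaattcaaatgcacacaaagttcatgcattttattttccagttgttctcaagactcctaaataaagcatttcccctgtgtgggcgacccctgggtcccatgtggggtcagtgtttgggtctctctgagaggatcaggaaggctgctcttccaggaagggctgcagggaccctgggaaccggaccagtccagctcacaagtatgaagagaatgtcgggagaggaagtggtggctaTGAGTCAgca
CYTOR: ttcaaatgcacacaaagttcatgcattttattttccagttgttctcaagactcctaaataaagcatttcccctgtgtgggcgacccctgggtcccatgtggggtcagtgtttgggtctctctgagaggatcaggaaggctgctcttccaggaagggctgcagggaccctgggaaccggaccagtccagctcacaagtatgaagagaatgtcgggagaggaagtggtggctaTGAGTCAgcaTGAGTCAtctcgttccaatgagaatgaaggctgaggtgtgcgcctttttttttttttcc
LINC02542: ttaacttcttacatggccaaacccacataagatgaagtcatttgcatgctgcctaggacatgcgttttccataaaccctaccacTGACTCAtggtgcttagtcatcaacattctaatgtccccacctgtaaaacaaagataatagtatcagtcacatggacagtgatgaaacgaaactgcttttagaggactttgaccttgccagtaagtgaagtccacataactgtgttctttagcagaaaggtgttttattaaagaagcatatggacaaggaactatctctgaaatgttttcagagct
LINC02384: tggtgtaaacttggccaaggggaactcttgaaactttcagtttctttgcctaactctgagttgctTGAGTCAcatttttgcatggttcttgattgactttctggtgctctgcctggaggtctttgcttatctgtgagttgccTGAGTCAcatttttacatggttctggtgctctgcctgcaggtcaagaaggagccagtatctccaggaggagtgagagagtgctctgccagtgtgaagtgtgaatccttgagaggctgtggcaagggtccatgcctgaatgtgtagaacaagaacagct

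These 6 members rose by 5.26, 8.21, 1.38, 2.38, 5.51 and 3.81 (log2, TFEB-Dox against TFEB-Veh), in the order shown. RP11-379B8.1 went from 15.5, 22.5 and 7.95 to 683, 852 and 559 and RP11-81H14.2 from 22.8, 23.3 and 24.8 to 278, 403 and 363. The motif was one of 4 searched, and a match is a stretch of letters, not a measured site.

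The E-box CACGTG is the core of the element that TFEB and its relatives, and also MYC, bind. It was in 3 of the 14 promoters of rising members, 0 of 3 of falling members and 4 of 20 of the others, beside 7.4% of all promoters. The longer TCACGTG, which contains the E-box, was in 2, 0 and 3 (3.8% of all), and the CRE-like TGATGNAA in 1, 0 and 0 (3.7% of all). The 3 E-box promoters of rising members are shown with the E-box in capitals, at chr20:36050911-36051210 (minus strand) for NORAD with the E-box at -138, chr13:30373865-30374164 (minus strand) for LINC00426 with it at -74 and chr22:45163732-45164031 (minus strand) for NUP50-DT (CTA-217C2.1) with it at 26.
NORAD: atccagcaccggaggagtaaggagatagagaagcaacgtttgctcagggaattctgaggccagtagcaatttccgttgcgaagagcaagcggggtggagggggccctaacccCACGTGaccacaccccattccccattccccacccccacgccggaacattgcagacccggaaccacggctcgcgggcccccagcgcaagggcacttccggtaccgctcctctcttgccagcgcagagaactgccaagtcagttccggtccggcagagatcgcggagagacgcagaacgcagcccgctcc
LINC00426: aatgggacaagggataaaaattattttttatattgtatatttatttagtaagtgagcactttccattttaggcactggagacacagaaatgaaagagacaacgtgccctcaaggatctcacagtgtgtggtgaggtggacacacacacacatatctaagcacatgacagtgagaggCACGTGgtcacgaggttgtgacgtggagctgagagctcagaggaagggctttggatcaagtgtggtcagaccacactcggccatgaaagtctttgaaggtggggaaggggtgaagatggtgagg
NUP50-DT: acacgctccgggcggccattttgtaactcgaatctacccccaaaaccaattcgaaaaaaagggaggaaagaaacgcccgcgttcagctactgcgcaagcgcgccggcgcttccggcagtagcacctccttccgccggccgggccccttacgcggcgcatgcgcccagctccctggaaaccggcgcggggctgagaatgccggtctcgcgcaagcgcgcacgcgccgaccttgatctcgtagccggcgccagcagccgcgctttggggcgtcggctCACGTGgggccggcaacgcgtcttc

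LINC00426 measured 53.9, 73.9 and 52.6 in TFEB-Veh and 1257, 1148 and 802 in TFEB-Dox (4.12), and NUP50-DT 61.2, 77.1 and 94.4 and 593, 608 and 427 (2.79). On the deposited scale both stood apart from all 9 controls, which NORAD did not. Unlike NORAD, both had entered through TFEB-Dox (means of 62.0 and 80.7 outside it), so their separation is a description only. The promoters of LINC00493 (SMIM26), RP11-773D16.1 (NUTM2B-AS1), ZNF667-AS1 and FIRRE (RP11-453F18__B.1) also hold an E-box, and these rows changed by 1.11, 0.44, 0.35 and -0.05, none called under each scaling.

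The 8 members that fell in TFEB-Dox against TFEB-Veh under each scaling were AC093323.3 (-1.92), RP11-723O4.9 (-1.79), RP11-497G19.1 (-1.71), LINC00599 (-1.62), BAIAP2-AS1 (-1.31), RP11-350F4.2 (-1.10), RP5-1057J7.6 (-1.06) and RP5-1043L13.1 (-0.99). LINC00599, BAIAP2-AS1 and RP5-1057J7.6 were lower than all 3 control groups under each scaling. BAIAP2-AS1 and RP5-1057J7.6, as well as RP5-1043L13.1, averaged under 100 outside EV-Veh, so their entry rested on EV-Veh. BAIAP2-AS1, RP11-350F4.2, RP5-1057J7.6 and RP5-1043L13.1 each lost the call without some single libraries, among them TFEB-Dox replicate 3 for all 4, and the other 4 kept it without any 1 library.

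LINC00599 (ENSG00000253230.2), the host of the neuronal microRNA miR-124-1, measured 191, 279.7 and 140.4 in EV-Veh, 255, 180.3 and 89.7 in EV-Dox, 92.2, 108 and 177 in TFEB-Veh and 40.9, 44.1 and 31.8 in TFEB-Dox. All 3 induced libraries lay under all 9 controls, with a difference of -1.62 in log2 terms (SE 0.37, limma adjusted p = 0.000893) against TFEB-Veh and -2.03 (adjusted p = 3.07e-05) against EV-Dox. RP5-1057J7.6, now LINC01355, measured 160.4, 236 and 113 in EV-Veh, 141, 92.3 and 64.6 in EV-Dox, 95.0, 87.6 and 111 in TFEB-Veh and 38.8, 51.6 and 48.9 in TFEB-Dox, also without overlap. BAIAP2-AS1, now BAIAP2-DT, measured 129, 232 and 108 in EV-Veh, 181, 142 and 56.5 in EV-Dox, 89.5, 149 and 123 in TFEB-Veh and 37.7, 74.2 and 36.7 in TFEB-Dox, and TFEB-Dox replicate 2 lay above EV-Dox replicate 3. On the deposited scale AC093323.3, RP11-723O4.9 and RP11-497G19.1 were also low in EV-Dox, and none of the 3 was called in TFEB-Dox against EV-Dox. AC093323.3 measured 201, 133 and 60.1 in EV-Dox and 69.2, 89.3 and 53.8 in TFEB-Dox. Normalized totals were smaller in EV-Dox (4012760 to 9918340) than in TFEB-Dox (15700000 to 21806200), so this likeness depends on the scaling.

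Without regard to a test, all 3 TFEB-Dox libraries lay above all 9 controls for 44 members, 36 of which had entered through TFEB-Dox, and under them for 7, beside 13.6% and 2.95% of all tested genes. The 7 were LINC00599, RP5-1057J7.6, RP11-350F4.2, RP11-262H14.1, LINC00683, CASC11 and CCDC26. CCDC26, a lincRNA of myeloid leukaemia cells, averaged 634 ± 122 in EV-Veh, 348 ± 40.3 in EV-Dox, 443 ± 40.2 in TFEB-Veh and 257 ± 40.9 in TFEB-Dox (SD, n = 3). Its change against TFEB-Veh of -0.79 did not pass limma's test (adjusted p = 0.201).

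In TFEB-Dox against EV-Dox, where both lines had the drug, 64 members had higher and 3 had lower values on the deposited scale, of which 46 and 3 held under each scaling. Of all tested genes 27.2% were higher and 5.37% lower, and of those with a mean of at least 100 the shares were 51.7% and 1.23%. Under each scaling the shares of all tested genes were 13.3% and 5.37%, and of those with a mean of at least 100 29.1% and 1.23%. So 18 of the 64 higher calls did not hold under each scaling, and 33 of the 46 that did belonged to members that entered through TFEB-Dox. RP11-215G15.5 (2.03), CASC7 (1.98), LINC00926 (2.14) and CTC-503J8.6 (2.16) were higher under each scaling in this comparison and were not called against TFEB-Veh (0.59, 1.00, 0.61 and 1.20). The 2 comparisons share the TFEB-Dox libraries. Against EV-Veh 40 members had higher and 17 had lower values, and the same numbers held under each scaling. Of the 40, 34 had entered through TFEB-Dox, and of the 17, 6 through EV-Veh. The shares of all tested genes were 12.2% and 8.51% (9.83% and 6.91% under each scaling), and of those with a mean of at least 100 17.6% and 11.5% (17.2% and 11.5% under each scaling).

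The drug without the transgene, EV-Dox against EV-Veh, gave 3 higher and 37 lower members on the deposited scale, but 3 and 8 under each scaling. Of the 37, 5 had entered through EV-Veh, and none of these was among the 8. The background share of higher genes was 3.39%, and that of lower genes 23.3% (3.39% and 5.75% under each scaling), and 0.516% and 47.8% among tested genes with a mean of at least 100 (0.516% and 13.9% under each scaling). The median log2 change of the members was -0.78 as deposited and 0.45 when scaled to expressed nuclear genes, beside -0.19 and 1.05 over all tested genes.

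The 8 lower members were LINC00926 (-2.31), RP11-215G15.5 (-2.18), RP11-723O4.9 (-2.11), RP11-522D2.1 (-1.86), RP11-498C9.15 (-1.83), CASC7 (-1.81), EPB41L4A-AS1 (-1.72) and RP11-497G19.1 (-1.69). LINC00926 measured 425, 649 and 315 in EV-Veh and 164, 83.0 and 51.1 in EV-Dox (SE 0.44, limma adjusted p = 0.00102), without overlap, and its call alone among the 8 survived the loss of EV-Veh replicate 2. Without that library the number of lower members on the deposited scale fell from 37 to 3, and without EV-Dox replicate 3 to 13. OVAAL (RP11-522D2.1) moved in opposite directions in the 2 lines, 557, 929 and 363 to 271, 148 and 96.9 in the EV line against a rise in the TFEB line.

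The 3 higher members were RP11-269F21.3 (1.71), RP11-513O17.2 (1.11) and AC079466.1 (1.06), and all 3 calls were lost without EV-Veh replicate 2. AC079466.1 measured 36.3, 74.4 and 57.1 in EV-Veh and 149, 127 and 77.1 in EV-Dox, against 1210.3, 1985 and 1422 in TFEB-Dox. RP11-513O17.2 did not exceed 22.9 in any control, so the gain with the drug alone was a small part of that with the transgene.

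Before induction, TFEB-Veh against EV-Veh, limma called 0 members higher and 0 lower, as it did for 0% of all tested genes, while 14 members had an unadjusted p under 0.05. edgeR and DESeq2 also called 0, with 10 each at an unadjusted p under 0.05. The log2 changes lay between -0.97 (RP11-498C9.15) and 1.08 (RP11-20G13.3).

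The response to doxycycline was tested for a difference between the lines with an interaction term, the change in the TFEB line minus the change in the EV line. It was positive for 67 members and negative for 1 on the deposited scale, and for 42 and 1 under each scaling (31 of the 42 entered through TFEB-Dox), beside 29.2% and 6.15% of all tested genes (10.8% and 6.15% under each scaling). Among tested genes averaging at least 100 the shares were 58% and 0.2% (25.2% and 0.2% under each scaling). The largest were RP11-145M4.1 (9.38), LINC01050 (8.31), AC079767.4 (8.01), RP11-145M4.2 (7.38), RP3-527G5.1 (7.32) and RP11-369K17.1 (7.10). LINC00599 was the single negative one, with -1.34 (SE 0.53, limma adjusted p = 0.0447), a call lost without each of 9 of the 12 libraries.

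**Figure D4:**
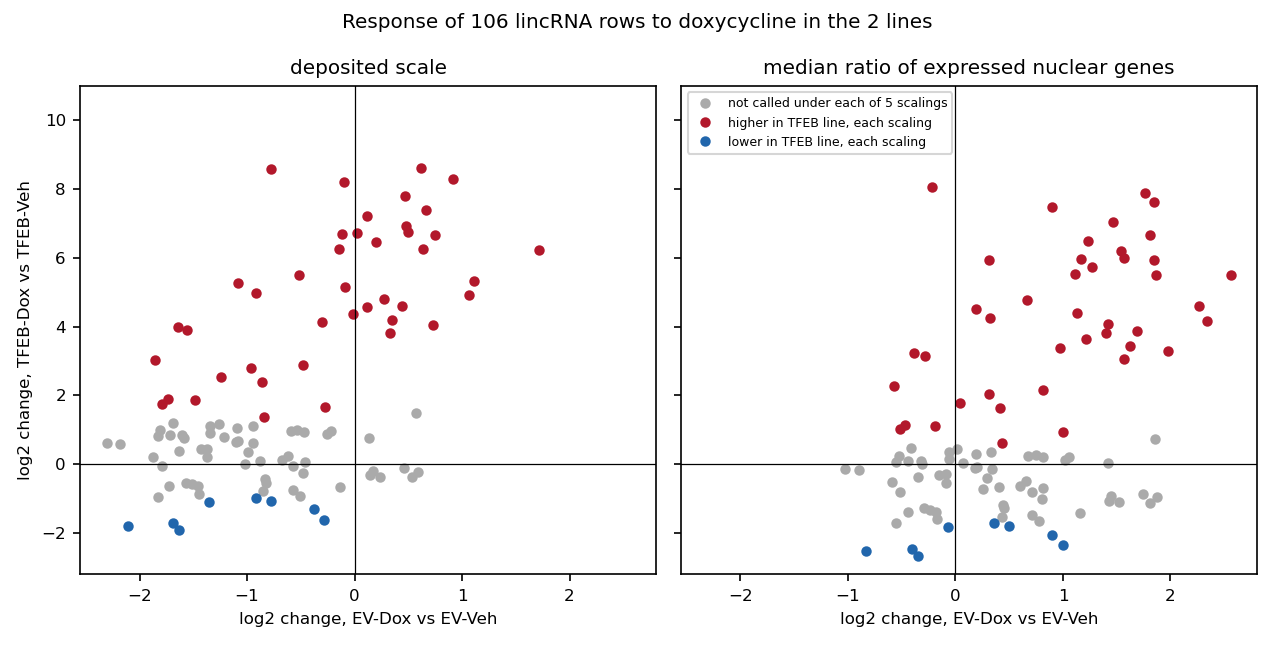
Log2 change of each of the 106 lincRNA rows in TFEB-Dox against TFEB-Veh (vertical) and in EV-Dox against EV-Veh (horizontal), as deposited (left) and when scaled to expressed nuclear genes (right); colours mark calls in the TFEB line under each of 5 scalings. Most points sit left of 0 in the left panel (median -0.78) and right of 0 in the right panel (median 0.45), while the 42 red and 8 blue points keep their side of the horizontal line in both.

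The members were also followed as a share of library reads. Such a share does not depend on the deposited scale but equals scaling to library totals, so it depends on the other genes. MALAT1, RMRP and NEAT1 took most of the members' reads, and the other 103 rows together took 0.188 ± 0.011% of a library in EV-Veh, 0.200 ± 0.015% in EV-Dox, 0.186 ± 0.014% in TFEB-Veh and 0.392 ± 0.011% in TFEB-Dox (SD, n = 3). The 36 members that entered through TFEB-Dox made up 0.195 ± 0.004% there and 0.010 ± 0.002% in EV-Veh. The share of the rest without MALAT1, RMRP and NEAT1 was 0.179 ± 0.009%, 0.183 ± 0.009%, 0.174 ± 0.011% and 0.197 ± 0.010% in the same order of groups. Mitochondrial genes took 16.0 ± 2.38% of reads in TFEB-Dox and 23.8 ± 2.77% to 30.4 ± 3.70% in the control groups, and their part in these shares was not tested. Within groups the median coefficient of variation of deposited values, not shares, was 40.5% in EV-Veh, 46.3% in EV-Dox, 26.9% in TFEB-Veh and 21.3% in TFEB-Dox. It covers members with a group mean of at least 100 and includes the spread of library totals. Normalized totals were 15335000 ± 6212310, 7097590 ± 2961630, 10177500 ± 2720460 and 18181800 ± 3209460 in the same order (SD, n = 3).

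Coding genes next to the members, by gene order in GENCODE release 29, were followed in the same comparison. Of 66 tested genes adjacent to the rising members 14 were higher (21.2%) and 1 lower under each scaling, beside 12.6% of all tested genes and 26% of those with a mean of at least 100. For the falling members 5 of 13 adjacent genes were higher and none lower, and for the uncalled members 12 of 69 (17.4%) were higher. The share for the rising members lay between the 2 background shares.

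Several pairs of neighbours rose together. PELATON lies between CEBPB, a myeloid differentiation factor (3.01), and PTPN1, a tyrosine phosphatase (1.62), both on its strand. RP11-145M4.1 and RP11-145M4.2 are next to JUN, a component of AP-1 (mean 294 in TFEB-Veh, 1654 in TFEB-Dox; log2 change 2.48). LINC00504 is next to CPEB2 (4.01), NORAD next to EPB41L1 (3.65), OVAAL next to XPR1, a phosphate exporter (3.03), LINC00856 next to ZMIZ1 (2.33) and GAPLINC next to TGIF1 (1.90). RP1-65P5.5 rose beside WT1, a transcription factor of leukaemic blasts, which was lower (367 to 81.6, -2.12).

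Of 7 falling members placed in the annotation 5 stood beside a gene that was higher, and RP5-1057J7.6 and RP5-1043L13.1 had neighbours between -0.56 and -0.09, none called. RP11-497G19.1 (-1.71) is next to C12orf49 on the opposite strand, whose mean went from 130.1 to 8315. RP11-723O4.9 is next to RAB7A, a late endosome GTPase (3.88), AC093323.3 next to S100P (3.01), BAIAP2-AS1 next to BAIAP2 (2.70) and LINC00599 next to MSRA (1.98). If the counting ignored strand (its strand setting was not given in the sources used here), reads of overlapping antisense partners could not be separated.

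**Figure D5:**
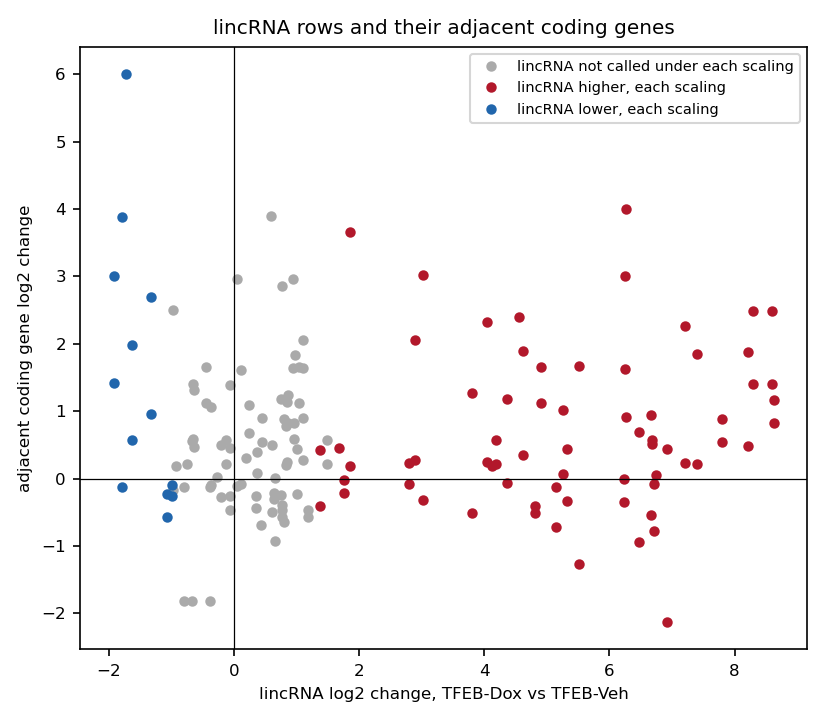
Log2 change in TFEB-Dox against TFEB-Veh of each tested coding gene adjacent to a lincRNA row (vertical) against that of the lincRNA (horizontal), 1 point per pair, coloured by the call of the lincRNA. Above the red points at the right, coding genes range from -2.12 (WT1) to 4.01 (CPEB2), and 5 of the 13 blue points lie at 1.98 or higher.

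Proteins that make, process or degrade noncoding RNA were followed as lists. Of 10 microprocessor and microRNA maturation genes AGO2 was higher in TFEB-Dox against TFEB-Veh (1.71), under each scaling, and none was lower (median 0.48). Of 21 nuclear RNA decay genes ZCCHC8 (2.44) and MPHOSPH6 (2.13), exosome cofactors, and C1D (1.81) were higher and EXOSC2 (-1.15), an exosome subunit, was lower, all under each scaling (median 0.52). The median of all tested genes with a mean of at least 100 was 0.62 in that comparison. In EV-Dox against EV-Veh 11 of 13 paraspeckle protein genes, 7 of 10 RNase P and MRP protein genes, 7 of 10 microprocessor genes and 15 of 21 decay genes were lower on the deposited scale, and 6, 1, 3 and 5 of them under each scaling, beside 47.8% and 13.9% of tested genes averaging at least 100.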

How the data were processed

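RNA was measured by sequencing of total RNA (NuGEN Ovation FFPE libraries, per the labels' protocols) in 12 HL60 libraries, grouped by title and treatment label. STAR 2.5.3a and HTSeq 0.6.1 were used, per the submitters' processing notes. Genome build, annotation and strand setting: not given in the sources used here. The authors deposited 1 table of normalized signal, in which each library's values are whole multiples of 1 step (100% at a tolerance of 0.01), so whole reads were recovered. For EV-Veh replicate 2 and TFEB-Veh replicate 3 that step differed from 1 by under 0.01, so rounded values would look the same. Genes with a mean of at least 10 were tested with limma 3.58.1 (R 4.3.3) on log2(value + 1), with 1 mean per group and a variance trend, in two-sided tests with Benjamini-Hochberg adjustment over all 23128 genes at 0.05. Standard errors are limma's. The 4 other scalings used TMM factors, library totals, upper quartiles, or median ratios over nuclear genes averaging 200 or more. edgeR 4.0.16 and DESeq2 1.42.0 were run on recovered reads. Same-numbered libraries had correlated deviations over 0.1 in every pair between EV-Veh and EV-Dox (0.21 to 0.72) and between EV-Veh and TFEB-Veh (0.45 to 0.63), so the numbers were taken to pair these groups, and not in every pair between the others (lowest -0.21 to -0.12). Differently numbered libraries ranged from -0.71 to 0.61. EV-Veh replicate 2 gave 0.61 with EV-Dox replicate 1 and 0.40 with EV-Dox replicate 2. The main test left the pairing out. The spread between replicates exceeded counting error (chi-square per degree of freedom 10.4 to 35.3).

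The members, lists and named genes were chosen with earlier results of these data known, and no list is tested as a set. The text names the members with the highest means, those of role lists, the largest changes called against all 3 controls, in EV-Dox against EV-Veh and in the interaction, and the rows at the limit, shortened from the bottom. Other rows named were chosen after their values were seen. Current names and gene order come from GENCODE release 29, matched by Ensembl identifier for 87 members, and promoters from RefSeq. Sequence from chromosome 8 is not shown.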

Additional observations from a re-analysis of the deposited data

Results flagged for a closer look

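For the 7 members named here the response to doxycycline differed between the 2 lines by limma's interaction test, the change in the TFEB line minus that in the EV line (log2). The interaction was 9.38 for RP11-145M4.1, 8.31 for LINC01050, 8.01 for AC079767.4, 7.38 for RP11-145M4.2, 7.32 for RP3-527G5.1 and 7.10 for RP11-369K17.1. All 6 became members only through TFEB-Dox, which also enters the interaction, so these values are a description and no p is given. These 6 had changes between -0.78 and 0.92 in the EV line. LINC00599 had an interaction of -1.34 (adjusted p = 0.0447), from -1.62 in the TFEB line and -0.29 in the EV line, and its call was lost without each of 9 of the 12 libraries.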

How the results depend on the processing

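The number of members called higher kept within 1.5 times its main value under every scaling and tool in TFEB-Dox against TFEB-Veh (46), EV-Dox (64) and the 3 controls at once (40). Counts of lower members moved with the scaling. Under TMM, equal totals, equal upper quartiles and expressed nuclear genes they were 16, 30, 26 and 25 against TFEB-Veh (main 8), 15, 40, 32 and 37 against EV-Dox (main 3), 10, 24, 21 and 22 against the 3 controls (main 3), and 15, 32, 30 and 33 for the interaction (main 1). edgeR gave 17, 20, 12 and 16, and DESeq2 15, 12, 10 and 6, in the same order. Positive interactions (main 67) fell to 43 with equal totals and 42 with expressed nuclear genes. In EV-Dox against EV-Veh the higher members (main 3) became 17, 32, 30 and 38 under the 4 scalings, 16 with edgeR, 7 with DESeq2 and 0 in a fit of the compared groups alone. The lower members (main 37) became 12, 15 and 8 under the last 3 scalings and 21 in a fit of the compared groups alone. The negative interaction was lost (0) with a filter at a mean of 1 and without the variance trend. The cause was not tested.

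A member limit of 50 gave 82 higher and 20 lower against TFEB-Veh, 105 and 10 against EV-Dox, 71 and 10 against the 3 controls, 9 and 67 in the EV line and 116 and 8 for the interaction, as more rows enter. A limit of 200 gave 28 and 3, 42 and 0, 24 and 0, 1 and 23, and 44 and 0.

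Leaving out 1 library in turn gave 40 to 52 higher and 4 to 11 lower members against TFEB-Veh, 52 to 69 and 1 to 7 against EV-Dox, 37 to 44 and 1 to 6 against the 3 controls, 0 to 5 and 3 to 55 in the EV line, and 56 to 73 and 0 to 2 for the interaction; 0 and 0 were called between the uninduced lines under each of these.

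Signs of 4 uncalled members turned to a call in TFEB-Dox against TFEB-Veh. With equal totals the log2 changes were -0.80 for LINC00174, -0.66 for JPX, -0.77 for RP11-403I13.8 and -0.74 for RP11-67L2.2. With expressed nuclear genes they were -0.55 for JPX and -0.63 for RP11-67L2.2, and with equal upper quartiles -0.58 for RP11-67L2.2.

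With the replicate number as a block (replicate block; pairing held only among the groups named in the methods) 49 members were higher and 8 lower against TFEB-Veh, 68 and 3 against EV-Dox, 42 and 3 against the 3 controls, 4 and 46 in the EV line, 0 and 0 between the uninduced lines, and 70 and 1 for the interaction. All main calls of members in these comparisons were kept, the 37 lower members of the EV line included.

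Depth limits the members near 0: 7 to 16 members had under 10 recovered reads in a control library, so the size of their rise is imprecise. Having 3 libraries per group limits what limma can call, and the EV comparisons rest on EV-Veh replicate 2 and EV-Dox replicate 3, the deepest and the shallowest library.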
